A study of Sus scrofa with 2 samples.

Results

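The genes described here serve the synthesis, sensing, esterification and transport of cholesterol, and their transcripts were compared between 2 organs, brain and liver, in the pig (Sus scrofa) breed Rongchang. The list has 35 genes, chosen by name from the pathway, without the P450 and ABC transporter genes. It was chosen with earlier results of these data known. Rows of the deposited table were taken by gene symbol, by the product name where the table gives a LOC number, or by transcript accession, and rows of 1 gene were summed. In this way 32 of the 35 genes were found, among 21415 genes in all, while MVD, LBR and INSIG2 were not analysed here. RNA of frozen brain and of frozen liver was sequenced, with 1 library per tissue, and the labels speak of brains and livers without saying how many animals a library holds, whether both tissues came from the same animals, or their age, sex or brain region. The titles of both libraries carry the same lane and barcode label.

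Cells build cholesterol from acetyl-CoA. Acetyl-CoA becomes HMG-CoA and mevalonate, mevalonate becomes isoprenoid units that are joined to farnesyl diphosphate and squalene, and squalene is oxidised and closed to lanosterol, which a last set of enzymes trims to cholesterol. The transcription factor SREBP-2 switches the enzyme genes on when membrane sterol is low, and INSIG proteins hold it back when sterol is plentiful. Brain makes its own cholesterol, much of it for myelin, because lipoproteins of the blood do not cross the blood-brain barrier, while liver makes, takes up, esterifies and secretes cholesterol for the whole body.

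Total counts were 23796843 in brain and 31724498 in liver. Levels are counts per 1000000 (CPM) after TMM scaling, which compares libraries on the bulk of their genes, and the log2 ratio is brain over liver after a pseudocount of 1 CPM. Genes were called in brain at a log2 ratio of at least 2, which is 4-fold, and in liver at -2 or lower. With 1 library per tissue there was no test and no replicate check, and the 95% intervals below cover counting error only. All 5 neuronal, 5 astrocyte and 5 oligodendrocyte markers at 1 CPM or more were called in brain, and all 6 hepatocyte and 5 Kupffer cell markers were called in liver. The myelin marker MOG stayed below 1 CPM, with 21 counts in brain and 0 in liver, and the neuronal marker RBFOX3 was not analysed here. The 3 erythroid markers also lay on the liver side, HBB at -1.61, ALAS2 at -1.54 and SLC4A1 at -2.08 with TMM scaling, and their part in the results below was not tested. In bulk tissue, fewer cells of a type and less RNA per cell cannot be told apart. Transcript lengths were not used here, so counts, shares and mean levels set side by side for different genes of a library also reflect length and are no order of expression.

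All 32 genes reached 1 CPM in at least 1 library. Called higher in brain were 3 of the 32, HMGCS1, SQLE and PLTP, a share of 9.38% beside 14.6% of all 15559 genes tested. Called higher in liver were 8 of the 32, a share of 25% beside 11.4% of all genes tested. These 8 were PMVK, NSDHL, EBP, DHCR7, SOAT2, LCAT, LIPA and LIPC. The remaining 21 lay between. The counts follow the fold required. At 2-fold they were 4 in brain and 16 in liver, beside 27.5% and 24.4% of all genes tested, and at 8-fold 0 and 3, beside 8.55% and 5.69%. The median log2 ratio of the 32 genes was -0.97, beside 0.02 over all genes tested.

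The choice of scaling moved the whole table. Plain library size shifted the median of all genes by 0.96 on the log2 scale, toward brain. With plain library size 4 of the genes were called in brain, with ACAT2 added, and 3 in liver (SOAT2, LCAT and LIPA), beside 24.1% and 6.02% of all genes tested. Without the 50 highest genes of either library in the totals, 4 were called in brain and 6 in liver, beside 18.0% and 8.67% of all genes tested. A change of scaling shifts the log2 ratios of genes with ample counts in both libraries by nearly the same amount. Genes with a level near or below the pseudocount shift less. From TMM to plain library size, HMGCS1 went from 2.24 to 3.34 and SOAT2 from -5.60 to -5.01. Most values set against the median of all genes could therefore move little. The 4 scalings are therefore no separate checks of a comparison with that median. With each of the 4 scalings, 7 of the 32 genes lay above that median, and the median of the 32 genes lay below it, at a log2 difference of -0.988 with TMM and -0.996 with plain library size. Of the 32 genes, 7 were above 0 and 16 below 0 with all 4 scalings, and 9 changed sign among them.

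**Figure D1:**
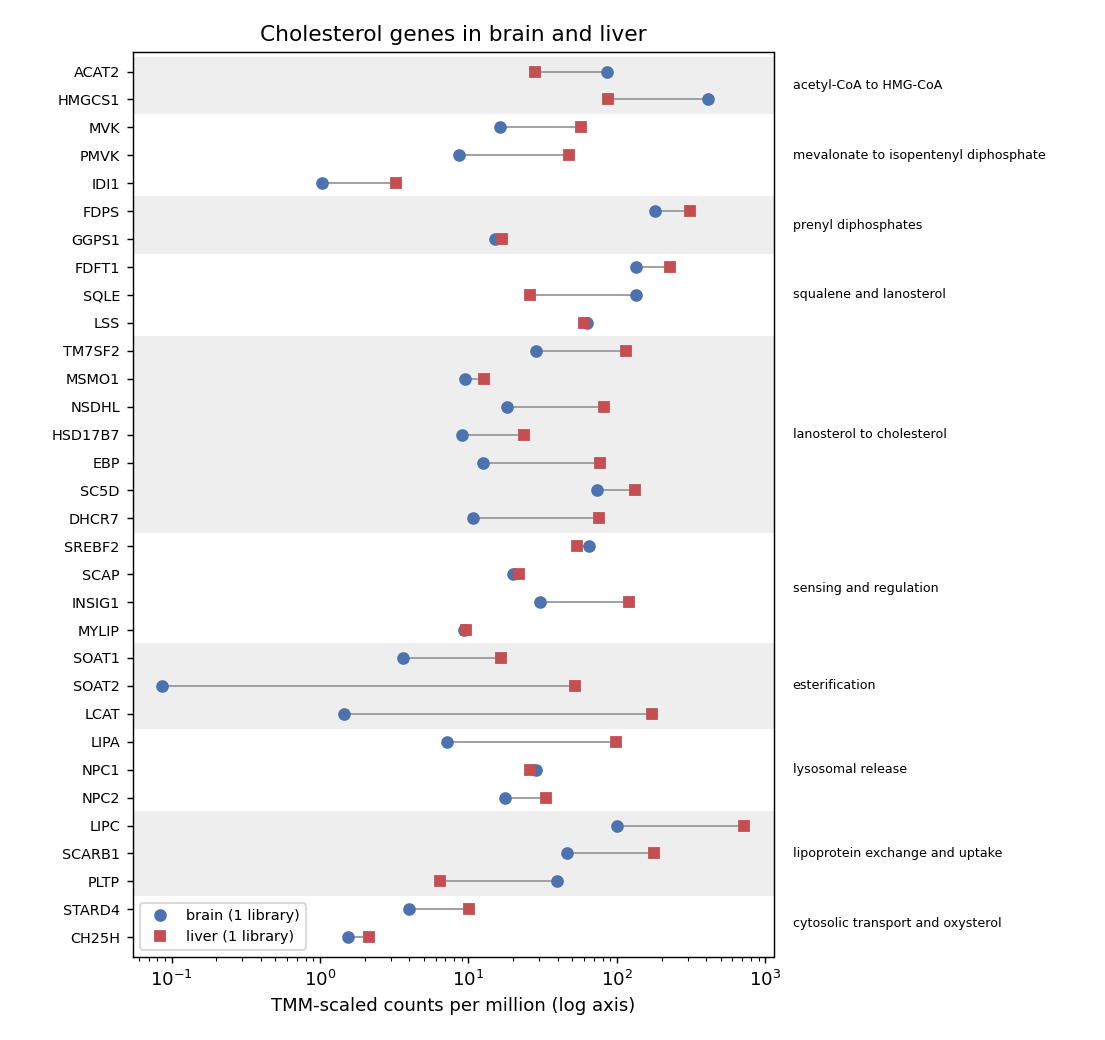
Level of each gene in the brain library (circles) and the liver library (squares), in TMM-scaled CPM on a log axis, grouped by role. The widest gaps are those of SOAT2 (0.0859 in brain, 51.8 in liver) and LCAT (1.46 and 171), and HMGCS1, SQLE and PLTP are the genes whose brain level is over 4-fold higher.

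Both enzymes that lead from acetyl-CoA to HMG-CoA had more transcript in brain. HMGCS1, the cytosolic HMG-CoA synthase, had 14457 counts in brain and 1870 in liver, or 414 and 86.5 CPM. Brain exceeded liver 4.78-fold (95% interval 4.56 to 5.02), a log2 ratio of 2.24. ACAT2, the cytosolic thiolase that joins acetyl-CoA units, had 2988 and 608 counts, or 85.5 and 28.1 CPM. Its fold of 3.04 (2.78 to 3.32) gave a log2 ratio of 1.57, below the call with TMM and above it with plain library size (2.65). ACAT1, the mitochondrial thiolase of ketone body metabolism and no member of the list, went the other way at 2389 and 14267 counts. Liver thus held 23.5 ACAT1 counts per ACAT2 count and brain 0.800, ratios that differed 29.3-fold (26.6 to 32.4). This pair was not among those planned.

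The next steps, from mevalonate to the isoprenoid unit, lay on the liver side. MVK, the mevalonate kinase, had 568 counts in brain and 1230 in liver, so that liver exceeded brain 3.50-fold (3.17 to 3.87), with a log2 ratio of -1.75. PMVK, which adds the next phosphate, had 304 and 1035 counts, or 8.70 and 47.9 CPM, and liver exceeded brain 5.50-fold (4.84 to 6.28). The log2 ratio of -2.33 became -1.29 with plain library size. The PMVK row spans 11679 bp, against 52244 bp for the gene in a RefSeq table of the later assembly Sscrofa11.1. The part of this in its counts was not tested. IDI1, the isomerase of the isoprenoid unit, had few counts in both libraries, 36 and 70, over 2 rows that the table names as similar to it. Its log2 ratio of -1.06 therefore rests on few counts.

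The prenyl diphosphate synthases and squalene synthase were closer between the tissues. FDPS, which makes farnesyl diphosphate, had 6348 counts in brain and 6716 in liver, with a log2 ratio of -0.77 that became 0.33 with plain library size. FDFT1, the squalene synthase that commits farnesyl diphosphate to sterols, had 4682 and 4891 counts, with -0.75 and, with plain library size, 0.35. GGPS1, which makes the longer prenyl chain used to anchor proteins in membranes, had 529 and 365 counts. Its log2 ratio of -0.15 became 0.89 with plain library size. The directions of all 3 thus depend on the scaling.

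SQLE, the squalene epoxidase that is a slow and controlled step of the pathway, stood apart from its neighbours. It had 4684 counts in brain and 560 in liver, or 134 and 25.9 CPM, and brain exceeded liver 5.17-fold (4.74 to 5.66). This log2 ratio of 2.33 was the highest among the synthesis enzymes with TMM scaling. LSS, which closes the ring to lanosterol, was at 63.3 and 59.7 CPM, a log2 ratio of 0.08. Its 2 rows disagreed. The row with the longer span had 1920 brain and 742 liver counts (log2 ratio 0.66), and the other had 290 and 548 (-1.50). The count of the first row per count of the second was 6.62 in brain and 1.35 in liver, a 4.89-fold difference (4.13 to 5.79), so the sum joins rows of opposite sign.

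All 7 measured enzymes that turn lanosterol into cholesterol had log2 ratios below 0 with TMM scaling, with a median of -1.98, but plain library size turned MSMO1 from -0.39 to 0.62 and SC5D from -0.84 to 0.25. DHCR7, the last enzyme of one branch, which is mutated in Smith-Lemli-Opitz syndrome, had 375 counts in brain and 1647 in liver, or 10.7 and 76.2 CPM. Liver exceeded brain 7.10-fold (6.34 to 7.96). EBP, the sterol isomerase, had 437 and 1655 counts, and liver exceeded brain 6.12-fold (5.51 to 6.82). NSDHL, a dehydrogenase of the demethylation steps, had 637 and 1759 counts, a 4.46-fold excess in liver (4.08 to 4.90).

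The other enzymes of this last stretch lay nearer to the threshold or to 0. TM7SF2, a sterol reductase, had 1003 and 2507 counts and a log2 ratio of -1.98, just short of the call. HSD17B7, the ketosteroid reductase, had 316 and 509 counts over 2 rows, with a log2 ratio of -1.29. SC5D, the lathosterol oxidase, had 2573 and 2875 counts. MSMO1, the methylsterol oxidase, had 332 and 276 counts in a row whose span is 2.82 times that of the gene in a RefSeq table of the later assembly Sscrofa11.1, and the part of this in its counts was not tested. With plain library size none of the 7 was called, beside 24.1% of all genes tested in brain and 6.02% in liver. DHCR7, EBP and NSDHL were then at -1.66, -1.46 and -1.02.

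**Figure D2:**
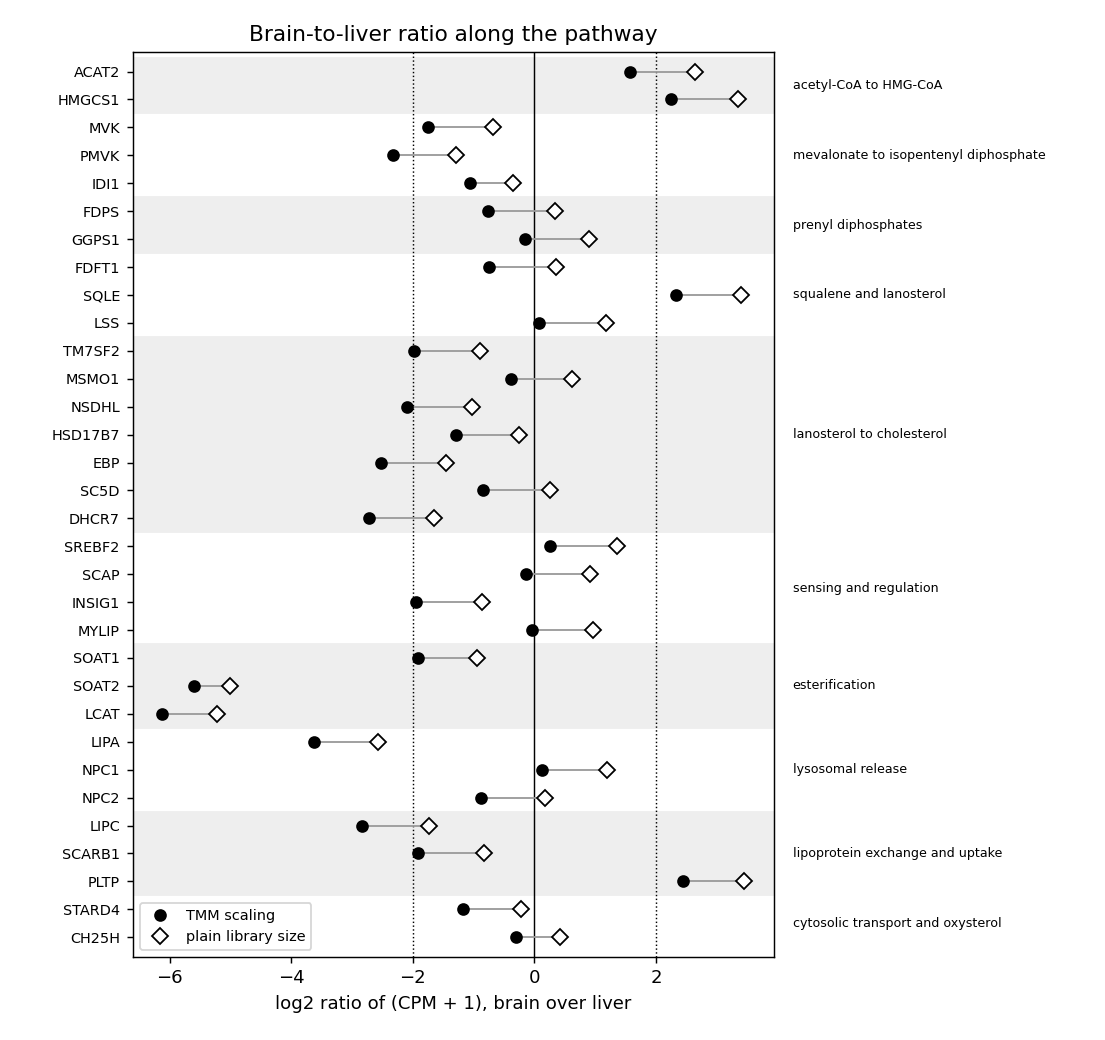
Log2 ratio of each gene, brain over liver, with TMM scaling (filled circles) and with plain library size (open diamonds), in the order of the pathway; dotted lines mark 4-fold. HMGCS1, SQLE and PLTP lie beyond 2 with both scalings, SOAT2, LCAT and LIPA lie beyond -2 with both, and FDPS, GGPS1, FDFT1, MSMO1, SC5D, SCAP, MYLIP, NPC2 and CH25H cross 0.

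Comparisons between enzymes of 1 library do not depend on the scaling, and gene length cancels when the ratio is set against that of the other library. Brain held 2.28 HMGCS1 counts per FDPS count and liver 0.278, ratios that differed 8.18-fold (7.71 to 8.68). SQLE and FDFT1 had nearly equal counts in brain, while liver held 0.114 SQLE counts per FDFT1 count, an 8.74-fold difference in the ratio (7.93 to 9.64). The ratio of SQLE to LSS differed 4.88-fold (4.36 to 5.47) and that of HMGCS1 to MVK 16.7-fold (15.0 to 18.7), both higher in brain. Within the last stretch, SC5D per DHCR7 was 6.86 in brain and 1.75 in liver, a 3.93-fold difference (3.47 to 4.46). HMGCS1 and ACAT2, both higher in brain, differed less from each other. Their count ratio was 4.84 in brain and 3.08 in liver, a 1.57-fold difference (1.42 to 1.74). These 6 pairs were chosen after their values were seen, most of them because the first gene was high in brain, so they describe these 2 libraries and support no pattern.

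The make-up of the pathway shows the same values as shares. The 17 measured synthesis enzymes took 0.179% of brain counts (Wilson 95% interval 0.177 to 0.180) and 0.0941% of liver counts (0.0931 to 0.0952). HMGCS1 alone was 34.0% of the synthesis counts in brain (33.6 to 34.5) and 6.26% in liver (5.99 to 6.54). Together with SQLE it made up 45.1% in brain and 8.14% in liver. The enzymes from lanosterol to cholesterol made up 13.4% in brain (13.0 to 13.7) and 37.6% in liver (37.1 to 38.1). FDPS took 22.5% of the synthesis counts in liver and 14.9% in brain. Shares within a library are not independent, and the large HMGCS1 and SQLE shares in brain lower those of all other enzymes there. The lower brain shares of FDPS and of the enzymes from lanosterol to cholesterol therefore do not by themselves show less transcript in brain.

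The summed level of the 17 enzymes was 1216 CPM in brain and 1382 CPM in liver with TMM scaling, 1.14-fold higher in liver (1.12 to 1.15). It was 1.90-fold higher in brain (1.87 to 1.92) with plain library size and 1.21-fold higher in brain (1.19 to 1.23) without the 50 highest genes of either library, so the tissue with the larger sum cannot be named. Without HMGCS1 and SQLE, the remaining 15 enzymes were 1.90-fold higher in liver (1.87 to 1.93) with TMM, and 1.13-fold higher in brain (1.11 to 1.15) with plain library size. These 2 genes were left out because they were called in brain, which by itself moves the sum toward liver.

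**Figure D3:**
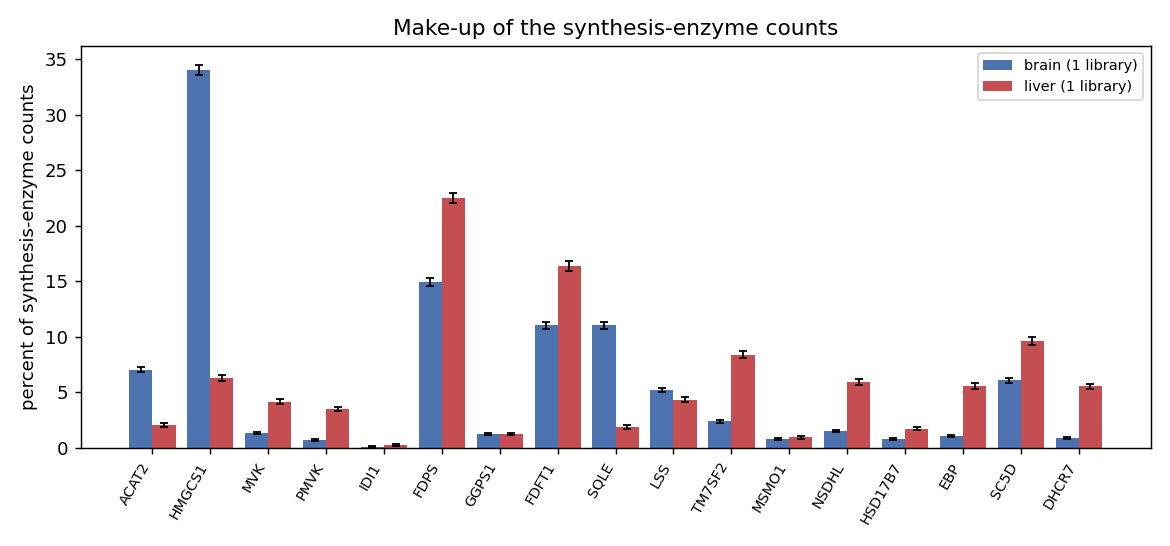
Share of each synthesis enzyme in the summed counts of the 17 measured enzymes, for the brain and the liver library; bars start at 0 and error bars are Wilson 95% intervals for counting error. HMGCS1 holds 34.0% in brain and 6.26% in liver, and SQLE 11.0% and 1.88%, while FDPS holds 14.9% and 22.5%. Within a library, a larger share of some enzymes lowers the shares of the others.

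None of the 4 measured genes of sterol sensing was called with TMM or with plain library size. Of all genes tested, 14.6% were called in brain and 11.4% in liver with TMM, and 24.1% and 6.02% with plain library size. With 4 genes, the lack of calls cannot be told apart from these shares. SREBF2, which encodes SREBP-2, had 2253 counts in brain and 1156 in liver, with a log2 ratio of 0.27, and 1.35 with plain library size. SCAP, the escort that carries SREBP-2 to the Golgi, was at 20.0 and 22.0 CPM (log2 ratio -0.14, and 0.92 with plain library size). MYLIP, a ubiquitin ligase that LXR induces and that marks lipoprotein receptors for breakdown, was at 9.39 and 9.67 CPM (-0.04, and 0.96 with plain library size). The intervals of the SCAP and MYLIP folds with TMM held 1, so a difference was not detectable at this depth with that scaling.

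INSIG1, which retains SCAP in the endoplasmic reticulum and is itself a target of SREBP, had the lowest log2 ratio of the 4 with both scalings. It had 1057 counts in brain and 2596 in liver, a log2 ratio of -1.95 just short of the call, and -0.87 with plain library size. Its row spans 123136 bp in the table, 9.28 times the span of 13265 bp in a RefSeq table of the later assembly Sscrofa11.1, and the part of this in its counts was not tested. SREBF1, the sister factor of fatty acid synthesis and no member of the list, was called in liver with 56 and 284 counts (log2 ratio -2.44, and -1.57 with plain library size). Brain held 40.2 SREBF2 counts per SREBF1 count and liver 4.07, a 9.88-fold difference (7.32 to 13.5) in a pair chosen after its values were seen.

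Of the 3 esterification genes, SOAT2 and LCAT had the widest gaps of the list and SOAT1 was not called. SOAT2, the acyltransferase of hepatocytes and enterocytes that makes cholesteryl esters for lipoproteins, had 3 counts in brain and 1120 in liver. The 604-fold excess in liver has an interval from 206 to 2931 that the 3 brain counts make wide. SOAT1, the form found in most cells, had 127 and 356 counts, or 3.64 and 16.5 CPM, and a log2 ratio of -1.91. Liver held 3.15 SOAT2 counts per SOAT1 count and brain 0.0236, so the balance of the 2 forms differed 133-fold (44.0 to 657).

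LCAT, the enzyme that esterifies cholesterol on plasma lipoproteins, had 51 counts in brain and 3703 in liver, or 1.46 and 171 CPM. Liver exceeded brain 117-fold (89.1 to 158), at a log2 ratio of -6.13, against -5.60 for SOAT2. With a pseudocount of 0.1 the order was the other way round, with LCAT at -6.78 and SOAT2 at -8.13. The brain count was 0.268% of the liver count for SOAT2 (0.0552 to 0.785) and 1.38% for LCAT (1.02 to 1.81). Among the 6 hepatocyte markers the same percentage was 0.0262% for ALB, the lowest, and 0.0535% for FGB (0.0327 to 0.0827). The interval of FGB overlaps that of SOAT2. So do those of TTR (0.0246 to 0.0725), SERPINC1 (0.0320 to 0.0600) and CPS1 (0.0350 to 0.0626). Overlap of such intervals does not show that the percentages are equal, and their difference was not tested. For APOA1 the percentage was 3.40%, above SOAT2 and LCAT.

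In the lysosome, the enzyme and the exporters differed. LIPA, the acid lipase that frees cholesterol from esters taken up with lipoproteins, had 250 counts in brain and 2145 in liver, a 13.9-fold excess in liver (12.2 to 15.9). The log2 ratio of -3.62 became -2.58 with plain library size. The LIPA row spans 30967 bp in the table and 123368 bp in the later RefSeq table, and the part of this in its counts was not tested. NPC1 and NPC2, whose proteins hand free cholesterol out of the lysosome, were not called with TMM or with plain library size. NPC1 had 989 and 558 counts and a log2 ratio of 0.13, which was 1.20 with plain library size. NPC2 had 614 and 718 counts and a log2 ratio of -0.88, which was 0.18 with plain library size.

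Ratios among these 3 genes restate the same counts. Liver held 3.84 LIPA counts per NPC1 count and brain 0.253, a 15.2-fold difference (12.8 to 18.0) in a pair chosen after its values were seen. The count of NPC1 per count of NPC2 was 1.61 in brain and 0.777 in liver, a 2.07-fold difference (1.78 to 2.41).

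**Figure D4:**
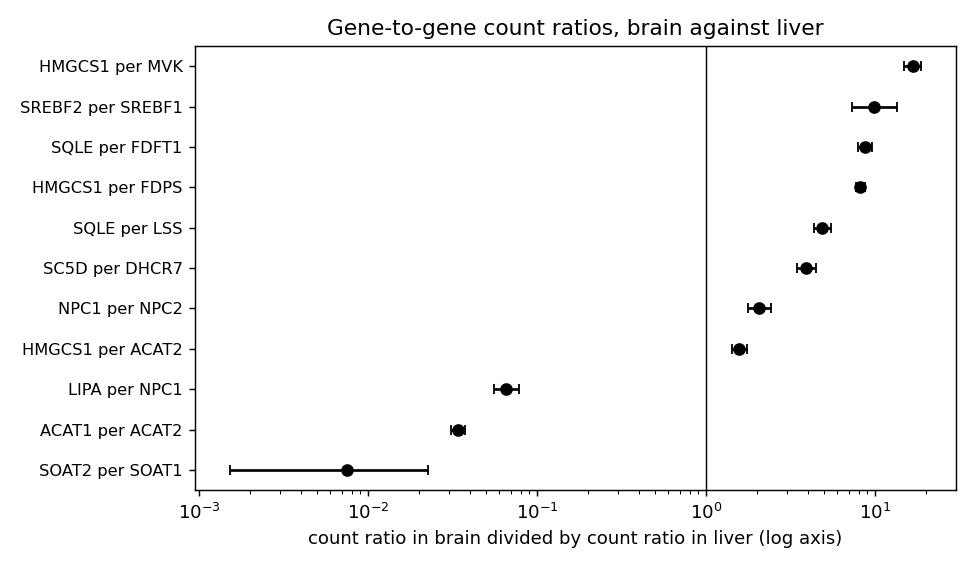
Count ratio of each pair of genes in brain divided by the same ratio in liver, on a log axis, with 95% intervals for counting error; a value of 1 means the same ratio in both libraries, and the scaling does not enter. HMGCS1 per MVK (16.7) is the highest, and SOAT2 per SOAT1 (0.00753) is the lowest.

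Genes of lipoprotein exchange went in both directions. PLTP, the phospholipid transfer protein that remodels high-density lipoprotein, had 1372 counts in brain and 138 in liver, or 39.3 and 6.39 CPM. Brain exceeded liver 6.15-fold (5.16 to 7.38), with the highest log2 ratio of the list, 2.45. Its 2 rows agreed in direction, at 670 and 82 counts and at 702 and 56 counts, with log2 ratios of 2.07 and 2.55. The count of the second row per count of the first was 1.05 in brain and 0.683 in liver, a 1.53-fold difference (1.06 to 2.23). The second row spans 17768 bp in the table and 11816 bp in the later RefSeq table, and the part of this in its counts was not tested. SCARB1, the receptor that takes cholesteryl esters from high-density lipoprotein, had 1619 and 3848 counts and a log2 ratio of -1.92, short of the call.

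LIPC, the hepatic lipase, had 3488 counts in brain and 15605 in liver, or 99.8 and 722 CPM. Liver exceeded brain 7.23-fold (6.97 to 7.51), and the log2 ratio of -2.84 became -1.74 with plain library size. Its brain count was 22.4% of its liver count (21.5 to 23.2), above the 0.0262% to 3.40% of the hepatocyte markers. The row spans 249113 bp in the table and 170456 bp in the later RefSeq table, and the part of this in its brain count was not tested.

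The remaining genes had few counts. STARD4, which carries sterol between membranes in the cytosol, had 138 counts in brain and 219 in liver (log2 ratio -1.17, and -0.22 with plain library size). CH25H, which makes a hydroxylated sterol that dampens SREBP activation, had 54 and 46 counts. Its fold interval held 1, and its log2 ratio of -0.30 became 0.42 with plain library size.

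A further 45 genes of sterol synthesis, sterol regulation, sterol transport, ester breakdown and the isoprenoid branches were listed for comparison. Of the 45, 38 reached 1 CPM. Of these, 3 were called in brain (7.89%, beside 14.6% of all genes tested) and 7 in liver (18.4%, beside 11.4%), with a median log2 ratio of -0.15, which plain library size turned to 0.76. All 3 called in brain belong to sterol transport, OSBPL6 (4.30) and OSBPL5 (2.06), which bind sterol or lipid at membrane contacts, and GRAMD1A (2.92), which moves cholesterol from the plasma membrane to the endoplasmic reticulum. Sterol transport genes also lay on the liver side, OSBPL9 at -2.45 and GRAMD1C at -2.28. OSBPL1A, the transport gene with the highest mean level, was at -0.14, which plain library size turned to 0.96.

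The other calls in liver were ACAT1 (-3.25), SREBF1, FAXDC2 (-2.98), the oxysterol receptor gene NR1H3 (-3.41) and CES1 (-5.84), a carboxylesterase of liver. MBTPS1, which encodes the protease that cuts SREBP in the Golgi, had the highest mean level among the regulators and was at -1.51. The 11 isoprenoid branch genes at 1 CPM or more serve the making of ubiquinone and dolichol or the prenylation of proteins and its later processing. With TMM 0 of them were called, beside 14.6% of all genes tested in brain and 11.4% in liver. With plain library size 2 of the 11 were called in brain (18.2%, beside 24.1%) and 0 in liver (beside 6.02%). The median of the 11 genes was -0.02, or 0.96 with plain library size. ICMT, the highest of them by mean level, was at -1.63. With plain library size 8 of 39 other genes were called in brain and 4 in liver, shares of 20.5% and 10.3% beside 24.1% and 6.02% of all genes tested.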

How the data were processed

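The table holds raw counts per gene for 1 brain and 1 liver library, as deposited by the authors. That they are counts was read from the values, whole numbers with unequal totals. A length per gene in bp, another value the authors deposited, was read as genomic span. The tool TopHat, a read aligner, and the build Sscrofa10.2 (susScr3) are named per the submitters' processing notes. The counting program and its strand setting were not given in the sources used here, so reads of overlapping genes or near-identical copies may be shared.

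Of the 32 genes found, 12 have a row taken by product name. Names of other rows came from the table or a RefSeq gene table of Sscrofa11.1, used for names and spans only, and 6980 of 21817 rows stayed unnamed but entered all totals. Scaling used the TMM method of edgeR 4.0.16 under R 4.3.3. It gave factors of 1.47 (brain) and 0.681 (liver). Genes at 1 CPM in at least 1 library entered. Folds are of scaled CPM without a pseudocount. Their intervals, and those of count ratios between genes, are exact conditional 95% intervals (scipy 1.17.1). The calling step was tested on simulated counts.

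Every gene of the list is named. Of the 45 other genes, those called and the highest of each list by mean CPM are named. Some genes of the pathway are not reported here. Members and lists were chosen with earlier results of these data known. Comparison of levels between genes, foreseen per coding length, was not made, since no lengths of coding sequence were used here.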

Additional observations from a re-analysis of the deposited data

How the results depend on the processing

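With 1 library per tissue, no result has a replicate check, and no paired analysis was possible because each group holds 1 library and no test was made. Scaling and the fold required both moved the calls. Plain library size gave 3 genes called in liver in place of 8, a median of -0.018 for all 32 genes in place of -0.97, and a median of 0.25 for the synthesis enzymes in place of -0.84. It also turned the direction of the summed level of the synthesis enzymes and of the median of the other pathway genes. It changed the sign of 9 of 32 genes. Scaling without the 50 highest genes gave medians of -0.61 and -0.39 and changed the sign of 4 genes. Pseudocounts, filters, median-of-ratios scaling and the highest row per gene changed no sign. Pseudocounts of 0.1 and 5 gave medians of -1.13 and -0.76 for the 32 genes, and 5 gave -0.76 for the synthesis enzymes. With 0.1, 10 genes were called in liver, with SOAT1 (-2.15) and TM7SF2 (-2.01) added. With 5, 2 were called in brain, without PLTP (1.96), 6 in liver, without PMVK (-1.95) and NSDHL (-1.89), and 7 of the other pathway genes. The shares of all genes tested were not computed at pseudocounts of 0.1 and 5, so these counts cannot be set against them. A filter at 5 CPM left 30 genes, with a median of -1.03. At 2-fold, 4 genes were called in brain and 16 in liver, beside 27.5% and 24.4% of all genes tested. Of the 38 other pathway genes, 20 were called in either tissue at 2-fold, in place of 10 at 4-fold. The shares of all genes tested at 4-fold were 14.6% in brain and 11.4% in liver. At 8-fold, 0 were called in brain, 3 in liver and 4 of the other pathway genes, beside 8.55% and 5.69% of all genes tested. Leaving out rows whose span exceeds the reference by over 2 times, a setting chosen after seeing the data, gave a median of -0.95 for the synthesis enzymes. HMGCS1, SQLE and PLTP were called in brain, and SOAT2, LCAT and LIPA in liver, with all 4 scalings at a pseudocount of 1.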
